A study of Mus musculus with 96 samples.

Results

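Carboxylesterases are serine hydrolases that split ester bonds in lipids, drugs and other foreign compounds, and most of them work inside the endoplasmic reticulum. The genes described here are Ces1c, Ces1d, Ces1e, Ces1f, Ces1g, Ces2a, Ces2c, Ces2e, Ces3a and Ces3b, which are 10 of the 20 genes named Ces among the 56748 genes counted. They were listed by name and selected on measured values, namely their library-scaled counts (CPM, counts of a gene scaled by the total of its library) in liver, muscle and cortex under both diets. Their levels under the diets in mice of both sexes, and the differences between these levels, are therefore a description, with no test. The list has no threshold: it holds Ces2c, with liver group means of 6.15 to 15.2 CPM, and leaves out Ces1b, with liver group means of 93.3 to 229 CPM.

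The male mice are described as C57BL/6 on normal chow, with no genetic modification named, and the question was how daily intermittent fasting changes gene expression in several organs. Mice had food at all times (ad libitum, AL) or were fasted for 16 h each day (intermittent fasting, IF). For male mice this schedule is described as starting at 6 weeks of age and lasting 4 months. Male mice are described as killed in a morning window timed so that IF mice were at the end of their fast. The last fast and the long schedule therefore cannot be told apart in the male diet differences. Mice 1 to 8 (AL) and 9 to 16 (IF) are labelled male, and mice 25 to 32 (AL) and 33 to 40 (IF) are labelled female. For the female mice the labels give the tissue and diet, and their strain, chow, age and schedule are not given in the sources used here.

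Each group gave 8 libraries of liver, 8 of skeletal muscle and 8 of cerebral cortex, except that 7 AL cortex libraries of male mice were used. The cortex library of AL mouse 1 was left out: it is labelled male, yet it held the female-specific transcript Xist at 213 CPM and 0 counts of the Y-linked genes Ddx3y and Eif2s3y. The 95 libraries used held 26097314 to 49838004 counts, with a median of 36132954. The tissue labels fitted the defining markers. Summed CPM of 6 hepatocyte markers was at least 40596 in each liver library and at most 5.52 in each muscle library, while Acta1 and Snap25 led the muscle and neuron lists in their own tissues. In cortex the hepatocyte list reached 4271 CPM in IF mouse 36, led by Ttr, which the choroid plexus also makes. All male mice belong to 1 set of numbers and all female mice to the other, so sex and set of mice cannot be told apart, and "male" and "female" below stand for both at once.

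The liver is rich in carboxylesterases and uses them both to clear drugs and to handle its own fat. The Ces1 enzymes are best known for lipid work: Ces1d, the triacylglycerol hydrolase, mobilizes stored triglyceride for very low density lipoprotein. The Ces2 enzymes take substrates with small acyl groups, several prodrugs among them, and some also hydrolyse glycerides. Other members are known for where they reside, since Ces1c is secreted into mouse plasma and Ces1e, also called egasyn, holds beta-glucuronidase in the endoplasmic reticulum.

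The members were liver genes above all. Their summed CPM had a median of 6598 in livers of male AL mice (range 5551 to 7495) and 6740 in livers of male IF mice (range 5884 to 7604). In females the medians were 6921 under AL (range 6372 to 7817) and 7395 under IF (range 6777 to 9621). The ranges of the diets overlapped in both sexes. In muscle the median sum was 47.7 CPM in male AL mice and between 89.2 and 97.0 CPM in the other 3 groups. In cortex it was between 0.235 and 0.366 CPM in the 4 groups. The members made up nearly the whole family output in liver, with median shares of 96.8% to 98.3% of all Ces counts per group. In muscle the median shares were 98.6% to 99.7%. In cortex they were at most 17.0%, and Ces5a led the family in TPM (a library-scaled level that divides counts by gene length). In TPM the members of the male livers summed to a median of 4490 under AL (range 3820 to 5119) and 5459 under IF (range 4534 to 6040). In female livers the medians were 5353 under AL (range 4940 to 6175) and 5636 under IF (range 5383 to 7482). The diets overlapped on this scale too, and the male means stood more than 1 standard deviation apart, at 4526 (standard deviation 464) and 5340 (503) TPM.

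Levels of different genes were compared in TPM. In livers of male AL mice, Ces3a stood first at a median of 1945 TPM and had rank 50 among all genes by mean TPM. Ces1c followed at 1041 TPM, then Ces2a at 373, Ces3b at 347, Ces1f at 207, Ces1e at 159.7 and Ces1d at 127 TPM. The ranges of Ces3a and Ces1c did not overlap, nor did those of Ces1c and Ces2a, whereas each neighbour from Ces2a to Ces1d overlapped the next. Ces1g at 79.6, Ces2e at 43.5 and Ces2c at 11.1 TPM closed the order, each without overlap with the next.

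The order was not the same in the other groups. In livers of male IF mice the medians of Ces1c, Ces3a and Ces1d were 1295, 1252 and 1078 TPM, and their ranges overlapped. Ces1d had rank 100 among all genes by mean TPM there, against rank 605 under AL. In livers of female mice Ces1c led by median, at 2384 TPM under AL and 2530 TPM under IF, and Ces3a came next at 903 and 907 TPM without overlap with Ces1c. In IF mouse 37, however, Ces3b stood above Ces1c, at 2338 against 1967 TPM. By median TPM, Ces3a thus led Ces1c in the male AL livers alone of the 4 groups; by mean TPM it also stood ahead of Ces1c in male IF livers, at rank 84 against 86.

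Ces1d showed the widest separation between diets among the members. In livers of male AL mice its CPM ran from 122 through a median of 166 to 309. In livers of male IF mice it ran from 1176 through 1312 to 1696. The groups were far apart, and the highest AL value belonged to mouse 1, which stood away from the other 7 AL mice. In livers of female mice Ces1d ran from 547 through 665 to 956 CPM under AL. Under IF it ran from 617 through 864 to 1181 CPM. The female groups overlapped over most of their range, and every female AL mouse lay above every male AL mouse. The mean CPM of male IF mice was 7.62 times that of male AL mice. The log2 difference fitted by edgeR, which rescales the libraries by TMM factors as for each log2 difference below, was 2.83 (standard error 0.16, n = 8 a group). In females the log2 difference was 0.33 (standard error 0.16, n = 8 a group).

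Ces1g, a relative of Ces1d that also hydrolyses lipid esters in liver, differed in the same direction in males by a smaller amount. Its CPM ran from 88.0 through 110.4 to 142 in male AL livers. In male IF livers it ran from 171 through 179.6 to 218. These groups did not overlap, and the log2 difference was 0.62 (standard error 0.13). Female AL livers ran from 137 through 183 to 250.5 CPM and female IF livers from 162 through 203 to 269.6 CPM. The female ranges overlapped in large part, with a log2 difference of 0.20 (standard error 0.15).

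Ces1f, another lipid hydrolase of the liver, held nearly the same level in all 4 liver groups. Its group medians were 391, 438, 402 and 429 CPM in male AL, male IF, female AL and female IF livers. The single libraries lay between 311 and 538 CPM, and all 4 ranges overlapped. Its log2 difference between diets was 0.04 in males (standard error 0.11) and 0.04 in females (standard error 0.13).

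Among the Ces2 genes, Ces2e came nearest to Ces1d in the size of its difference. Male AL livers held it at 53.8 to 98.4 CPM with a median of 65.2. Male IF livers held it at 203 to 268 CPM with a median of 219. The lowest male IF mouse was above the highest male AL mouse, mouse 1, and the mean CPM values stood 3.22 to 1. The fitted log2 difference was 1.60 (standard error 0.12). In female livers the range was 21.2 to 102 CPM under AL with a median of 67.5. Under IF it was 40.7 to 76.5 CPM with a median of 58.3. The female IF range lay inside the female AL range, and the log2 difference was -0.06 (standard error 0.25).

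Ces2a, the most abundant Ces2 gene in TPM in each liver group, ran from 439 through 495 to 600.2 CPM in male AL livers. It ran from 644 through 707 to 1101 CPM in male IF livers. The ranges did not meet, and the 2 highest IF mice were mice 9 and 10. The log2 difference was 0.53 (standard error 0.13). Female livers ran from 298 through 438 to 480.1 CPM under AL and from 389.8 through 517 to 605 CPM under IF. Here the diets overlapped, with 6 of the 8 IF mice above every AL mouse and a log2 difference of 0.36 (standard error 0.14).

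Ces2c was the least abundant member in liver, and its level varied widely among mice. Male AL livers ran from 3.04 through 14.4 to 28.03 CPM, and male IF livers from 9.49 through 13.7 to 25.2 CPM. Female livers ran from 3.33 through 5.88 to 18.9 CPM under AL, and from 0.510 through 4.18 to 15.2 CPM under IF. All 4 ranges overlapped. The log2 difference between diets was -0.19 in males (standard error 0.36) and -0.42 in females (standard error 0.56), each smaller than its error. Leaving out single libraries moved the female value from -0.78 (without IF mouse 40) to -0.15 (without AL mouse 29).

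Ces3a went the other way from Ces1d in males. Its CPM ran from 2624 through 2905 to 3716 in male AL livers. It ran from 1181 through 1649 to 2264 in male IF livers. Each male IF mouse was below each male AL mouse, and the log2 difference was -0.92 (standard error 0.12). Female AL livers ran from 1061 through 1212 to 2125 CPM and female IF livers from 866 through 1212 to 1749 CPM. The female medians were alike to 3 digits and the ranges overlapped, with a log2 difference of -0.06 (standard error 0.16).

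Ces3b, which shares most of its coding sequence with Ces3a, was far less even among mice. Male AL livers ran from 272 through 507 to 1896 CPM, the top value being that of mouse 8. Male IF livers ran from 203 through 257 to 562 CPM. The ranges overlapped, the log2 difference was -1.18 (standard error 0.43), and without AL mouse 8 it was -0.73. Female AL livers ran from 512 through 841 to 1386 CPM. Female IF livers ran from 468 through 779.7 to 3102 CPM, with mouse 37 on top. Again the diets overlapped, the log2 difference was 0.39 (standard error 0.35), and without IF mouse 37 it was 0.01.

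Ces1c and Ces1e, the secreted esterase and egasyn, had overlapping diet groups in both sexes. Ces1c ran from 947 through 1380 to 1715 CPM in male AL livers and from 1209 through 1567 to 1729 in male IF livers. It ran from 1916 through 2843 to 3035 CPM in female AL livers and from 2364 through 3022 to 3196 in female IF livers. No male AL mouse reached the female AL range. Ces1e had medians of 193, 271, 228 and 225 CPM in male AL, male IF, female AL and female IF livers, and its lowest value, 133 CPM, was that of IF mouse 16. In males 6 of the 8 IF mice lay above every AL mouse for Ces1e, against 1 of 8 for Ces1c. The log2 differences in males were 0.08 for Ces1c (standard error 0.15) and 0.23 for Ces1e (standard error 0.13). In females they were 0.14 and 0.13 (standard errors 0.14 and 0.13). Leaving out single libraries moved Ces1c in males from 0.008 (without AL mouse 2) to 0.16 (without AL mouse 6). In females it moved Ces1c from 0.08 to 0.19 and Ces1e from 0.06 to 0.17. Ces1e, not called between diets in male livers, was called there with total counts and without IF mouse 16.

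**Figure D1:**
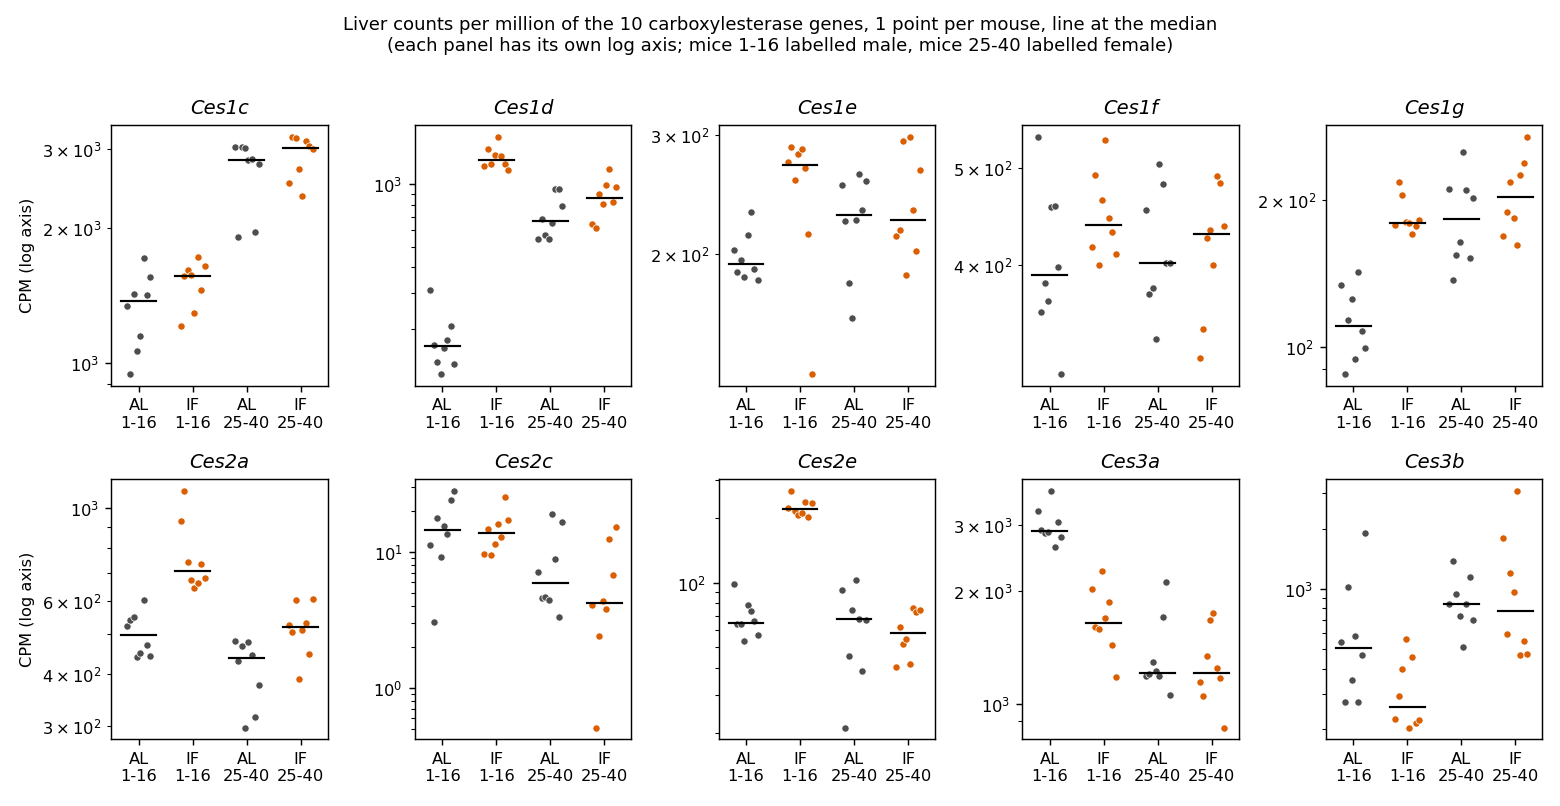
CPM of each of the 10 genes in liver, on log axes that differ between panels; each point is 1 mouse, the line is the median of 8 mice, and AL is grey and IF orange. Ces1d sits between 122 and 309 in male AL mice and between 1176 and 1696 in male IF mice, while the female groups overlap for each of the 10 genes.

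Across all genes, 7234 of 16204 tested (44.6%) differed between diets in male livers by the edgeR quasi-likelihood test at a Benjamini-Hochberg adjusted p under 0.05. The members among them were 6 of 10: Ces1d, Ces1g, Ces2a and Ces2e higher under IF, and Ces3a and Ces3b lower. Since the list was drawn up with these levels known, nothing is read from that count. Ces3b was not among them with the replicate number as a block, nor in 7 of 16 fits that each left out 1 library, AL mouse 8 among those left out. The ranges of AL and IF mice did not overlap for 5 members in males (14.6% of genes tested) and for 0 in females (0.0188% of genes tested).

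In female livers the same test called 0 of 15938 genes (0.00%), members included, with 919 genes at an unadjusted p under 0.05, and DESeq2 called 6 genes. Scaling by total counts alone moved the median log2 difference of all genes in male livers from 0.06 to 0.15, and the split of 3815 higher and 3419 lower genes to 4401 and 2696. Each member kept the sign of its diet difference in both sexes with TMM factors, with RLE size factors and with total counts.

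A liver sample mixes cell types, so fewer cells of a type and less RNA per cell cannot be told apart in these values. Hepatocyte markers summed to a median of 54858 CPM in male AL and 50805 CPM in male IF livers, with Alb most abundant, and 2 of 6 fell. Erythrocyte markers, led by Hba-a1, summed to 569 CPM under AL and 2070.4 CPM under IF, with 6879 in IF mouse 9, and 3 of 5 rose. Cholangiocyte markers, led by Krt19, summed to 6.51 and 16.5 CPM, and 3 of 3 rose. Endothelial markers, led by Stab2, summed to 144 and 198 CPM with 2 of 5 risen, and Kupffer cell markers, led by Clec4f, to 139 and 184 CPM with 1 of 4 risen.

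Genes of the liver zones were listed too. Pericentral genes, led by Cyp2e1, summed to 4574 CPM in male AL and 11311 CPM in male IF livers, where 2 of 5 rose and 1 fell. Periportal genes, led by Pck1, summed to 1480.2 and 2493 CPM, where 2 of 5 rose and 2 fell. The median log2 differences were 0.10 for pericentral and 0.50 for periportal genes, against 0.06 for all genes. Beside the counts of these 7 lists stand the 44.6% of all genes called in male livers. No gene of these 7 lists was at 0 in every library of a male liver group. In female livers edgeR called 0 genes of these lists. The part of these cell and zone markers in the members' levels was not tested.

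The share of counts from mitochondrial genes, a possible sign of RNA quality, also moved with diet in males. It ran from 14.5% through 20.6% to 25.1% in male AL livers and from 8.75% through 10.7% to 13.9% in male IF livers, without overlap. In female livers it ran from 8.34% through 13.7% to 23.8% under AL and from 8.12% through 12.7% to 18.7% under IF. With these counts left out of the library total, which was chosen after seeing the data, the log2 ratio of the male IF to the male AL mean CPM went from 2.93 to 2.78 for Ces1d, from 1.69 to 1.54 for Ces2e and from -0.82 to -0.97 for Ces3a. Smaller ratios moved by more for their size in males, from 0.19 to 0.03 for Ces1c, from 0.33 to 0.17 for Ces1e and from -0.07 to -0.23 for Ces2c. Ces1f changed sign, from 0.14 to -0.02 in males and from 0.00145 to -0.0349 in females. Mouse by mouse within the 4 groups, Ces2e ran against the mitochondrial share, with r of -0.83 over 32 livers, -0.57 in males and -0.88 in females. Ces1g did so in females (-0.86) and hardly in males (0.03), and Ces3b rose with the share in females (0.74). For Ces1d r was -0.21 over all livers, -0.56 in males and -0.06 in females. The CPM totals include the mitochondrial counts, which builds part of a negative r in for any other gene. No r for all genes was set beside these values, so nothing is read from them. In male livers the part of this share, or of RNA quality, in the members' differences cannot be told apart from diet.

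The makeup of the family differed between diets as well. In male livers the median share of Ces3a in the members' summed TPM was 45.7% under AL and 23.0% under IF, and the share of Ces1d was 2.77% and 20.3%. Ces1c held 21.8% and 23.9%, and Ces2a 8.25% and 11.8%. The median shares of Ces1c, Ces3a and Ces1d were thus alike in male IF livers, while Ces3a held the largest share under AL. In female livers the medians of Ces1c were 44.1% and 42.0%, those of Ces3a 17.2% and 15.3%, and those of Ces1d 10.5% and 11.3%.

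**Figure D2:**
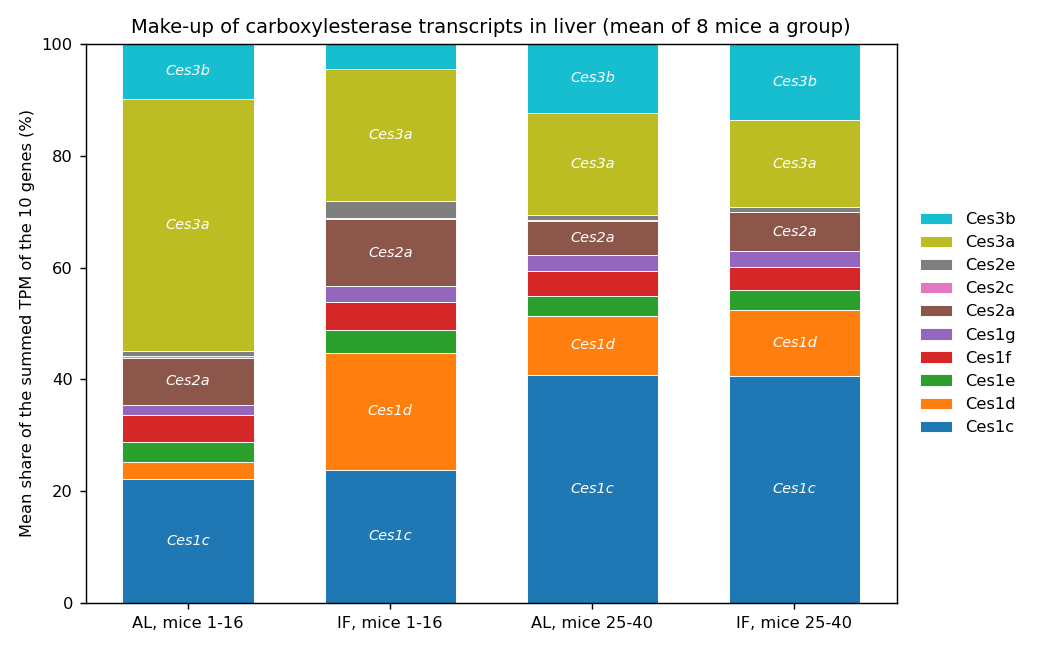
Mean share of each of the 10 genes in their summed TPM in liver, as stacked bars in percent, for 8 mice a group. The mean share of Ces3a is 45.1% in male AL and 23.6% in male IF mice, that of Ces1d 2.94% and 20.9%, and that of Ces1c 40.8% and 40.6% in female AL and IF mice.

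In muscle, 3 of the 10 members passed the filter on low counts: Ces1d, Ces1e and Ces1f. Ces1d ran from 23.7 through 46.5 to 63.3 CPM in male AL muscles and from 59.6 through 87.9 to 206 CPM in male IF muscles. The ranges met only at their edges, and the highest IF value was that of mouse 12. In female muscles it ran from 49.99 through 94.0 to 123 CPM under AL and from 51.4 through 87.5 to 134 CPM under IF, which overlapped almost whole.

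Ces1f was low in muscle but differed more between the male groups. It ran from 0.0640 through 0.302 to 2.87 CPM in male AL muscles and from 2.15 through 7.27 to 22.0 CPM in male IF muscles. AL mouse 2 was the only male AL mouse inside the IF range, and mouse 12 was again the highest IF mouse. In females the medians were 1.14 CPM under AL and 0.926 under IF, with overlapping ranges. The log2 differences in males were 1.11 for Ces1d (standard error 0.29) and 3.67 for Ces1f (standard error 0.72). In females they were 0.05 and -0.28 (standard errors 0.22 and 0.65). Ces1e stayed between 0.165 and 1.003 CPM in all muscle libraries.

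The edgeR test called 3465 of 15025 genes (23.1%) in male muscles, Ces1d and Ces1f among them. It called 1 of 15308 genes (0.00653%) and 0 of the 3 members in female muscles, with 1644 genes at an unadjusted p under 0.05 and 91 called by DESeq2. In males 1727 genes were higher and 1738 lower, which total counts alone made 2549 and 1073. Adipocyte markers moved in the same male muscles: 6 of 7 rose, with a median log2 difference of 2.20 against 0.01 for all genes. Their summed CPM ran from 166 through 320.2 to 749 under AL and from 418 through 1558 to 3839 under IF, with AL mouse 2 and IF mouse 12 highest, as they were for Ces1f. Fabp4 was the most abundant of them and none was at 0. In female muscles 0 of 7 were called and the summed medians were 433 and 365 CPM. Of the other cell lists in male muscles, 2 of 5 skeletal muscle markers fell (median -0.16) and 1 of 4 endothelial markers tested rose (0.23). The part of adipocyte RNA in the muscle levels of Ces1d and Ces1f was not tested.

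In cortex no member passed the filter in either sex, against 1332 of 18462 genes called (7.21%) in males and 2 of 18403 (0.0109%) in females. The male count was 2259 with DESeq2, 499 without mice 2 and 10, 382 with the replicate block and 295 with the omitted library included. Ces1f and Ces1d were the members seen most often there, with group medians up to 0.134 and 0.132 CPM. Ces1g had group medians up to 0.0564 CPM, the other 7 members had medians of 0 in each cortex group, and Ces2a had 0 counts in all cortex libraries used.

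Female and male livers under AL were compared, as female minus male, with edgeR over all 32 liver libraries. The genes were listed with the AL levels of both sexes in view, so the members' differences are a description and carry no p. Ces1d was higher in females by a log2 difference of 1.84 (standard error 0.17), with all 8 female AL mice above all 8 male AL mice. Ces1c was higher in females by 0.85 (standard error 0.15), again without overlap. Ces1g was higher by 0.55 (standard error 0.14), with overlap.

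Ces3a lay in the other direction. Its log2 difference was -1.29 (standard error 0.14), and all 8 female AL mice lay below all 8 male AL mice. Ces2a was lower in females by a log2 difference of -0.43 (standard error 0.14), and by -0.28 when total counts alone were used. It was no longer called with total counts or without AL mouse 6. The other 5 members differed by log2 values of -0.99 for Ces2c, -0.27 for Ces2e, 0.21 for Ces3b, 0.02 for Ces1e and -0.13 for Ces1f. Leaving out single libraries moved Ces3b from 0.08 (without AL mouse 2) to 0.67 (without AL mouse 8) and Ces2e from -0.41 to -0.14.

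Across all genes, 3529 of 17658 (20.0%) were called in this comparison, and 5 of the 10 members were among them; nothing is read from that count. The ranges of female and male AL livers were apart for 3 members, Ces1c, Ces1d and Ces3a, against 5.43% of genes. The genes called were 1835 higher and 1694 lower in females, and 3384 and 1016 with total counts alone, which moved the median of all genes from 0.04 to 0.19. Ces1c, Ces1d, Ces1g and Ces3a kept their direction under each scaling, while Ces1f and Ces1e, which were not called, changed sign, to 0.03 with total counts and to -0.01 with RLE size factors. Among the cell markers, 2 of 4 Kupffer cell markers were higher in females (median log2 difference 0.91), with summed medians of 139 CPM in male and 238 CPM in female AL livers. Of 5 endothelial markers 1 was higher, with 144 and 306 CPM, though their median log2 difference was -0.12. Of 5 erythrocyte markers 1 was lower (median -0.16), with 569 and 522 CPM. Among hepatocyte and cholangiocyte markers 0 of 6 and 0 of 3 were called. Of the zone genes, 1 of 5 pericentral genes was lower, and of 5 periportal genes 1 was higher and 1 lower. The median mitochondrial share was 20.6% in male and 13.7% in female AL livers. The part of these markers, zones and the mitochondrial share in the members' differences was not tested.

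The diet differences of the sexes were also set against each other, as the female minus the male log2 difference (the interaction). This is made of the same diet levels with which the genes were listed, so it too is a description of the members, with no p. Ces1d gave -2.47 (standard error 0.23) and Ces2e -1.63 (standard error 0.29). For both, the IF mice were all above the AL mice in males, and the diets overlapped in females. Ces3a gave 0.89 (standard error 0.20), the male difference being negative and the female one close to 0.

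Ces3b gave 1.60 (standard error 0.57), a value that leaned on single mice. It was 1.15 without AL mouse 8 and 1.23 without IF mouse 37, and 1.29 with the replicate number as a block. Ces3b was no longer called for the interaction with that block, with total counts, with no filter on low counts, or in 15 of 32 fits that each left out 1 library.

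The other 6 members were not called for the interaction: Ces1g gave -0.38 (-0.56 with total counts alone, where it was called), Ces2a -0.15, Ces1c 0.09, Ces1e -0.08, Ces1f 0.04 and Ces2c -0.20. Leaving out single libraries moved Ces2a from -0.21 to -0.02, Ces1c from 0.01 to 0.15 and Ces1e from -0.18 to -0.02. Across all genes, edgeR called 4186 of 17658 (23.7%) for the interaction, with 4 of the 10 members among them, Ces3b included, a count from which nothing is read. The interaction was positive for 2267 genes called and negative for 1919, and for 1483 and 2771 with total counts, which moved the median of all genes from -0.04 to -0.21. Ces1c and Ces1f changed sign with total counts, to -0.08 and -0.13, and neither was called. Cell markers were called for the interaction as well: 2 of 3 cholangiocyte markers (median -1.73), 2 of 5 erythrocyte markers (-1.60) and 2 of 5 endothelial markers (-0.56) were negative, 1 of 6 hepatocyte markers was positive (0.42) and 0 of 4 Kupffer cell markers were called. Of the zone genes, 2 of 5 pericentral genes were negative (-0.57), while of 5 periportal genes 2 were positive and 2 negative (-0.54). The median mitochondrial share fell from 20.6% to 10.7% under IF in male livers, against 13.7% and 12.7% in female livers. The part of these cells, zones and the mitochondrial share in the members' values was not tested.

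The rest of the family was listed for comparison, apart from the pseudogene Ces2d-ps. Of these 9 other Ces genes, 6 were tested in male livers, where 2 rose and 2 fell under IF, against 44.6% of all genes called, with a median log2 difference of -0.84 against 0.06 for all genes. Ces1b, the nearest relative of Ces1c, was higher by 1.04 (standard error 0.15, adjusted p = 5.92e-06 by edgeR), from a mean of 93.3 to 208 CPM. It was also higher in female than in male AL livers, by 0.90 (adjusted p = 0.000201), and its interaction was -0.74 (adjusted p = 0.0246). The other 3 genes called in males, Ces1a, Ces2b and Ces4a, had medians of at most 3.17 CPM in each liver group. In female livers 0 of 5 tested were called. Ces2f and Ces5a had 0 counts in all 32 liver libraries.

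Gusb, beta-glucuronidase, the partner that Ces1e holds in the endoplasmic reticulum, ran from 7.44 through 9.05 to 10.9 CPM in male AL livers and from 16.6 through 17.9 to 21.0 CPM in male IF livers. It rose by a log2 difference of 0.87 (standard error 0.10, adjusted p = 1.62e-07 by edgeR) where Ces1e itself differed by 0.23. In female livers its medians were 10.5 and 10.97 CPM, and its interaction was -0.88 (adjusted p = 1.71e-05). Leaving out single libraries moved Ces1e in males from 0.17 to 0.33. A test of Gusb against Ces1e was not made, so it is not known whether the partners differed between diets by unequal amounts.

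Among 12 other neutral lipid hydrolases, 7 rose and 3 fell in male livers under IF, against 44.6% of all genes called, with a median log2 difference of 0.51 against 0.06 for all genes. Pnpla2, adipose triglyceride lipase, the enzyme that starts the breakdown of stored triglyceride, rose by 1.36 (standard error 0.11, adjusted p = 4.92e-10 by edgeR). Its coactivator Abhd5 fell by 0.63, and Pnpla3, a lipid droplet protein, fell by 2.79. These genes are named after their values were seen. In female livers 0 of 12 were called, with a median of 0.01, 919 of all genes being at an unadjusted p under 0.05. Female AL livers were higher than male AL livers for 5 and lower for 1 (20.0% of all genes were called), and the interaction passed for 7, of which 3 were positive (23.7% of all genes).

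Of 12 nuclear receptors and other factors known to act on Ces genes or on liver lipid genes, 4 rose and 0 fell in male livers, beside 44.6% of all genes called, with a median log2 difference of 0.06, as for all genes. The 4 were Ppara, the fasting-responsive fatty acid receptor (1.24, adjusted p = 8.67e-07 by edgeR), the drug-sensing receptors Nr1i3 (1.08, adjusted p = 0.00528) and Nr1i2 (0.99, adjusted p = 7.77e-06), and their common partner Rxra (0.98, adjusted p = 2.59e-08). In females 0 of 12 were called. Under AL, 5 were higher and 1 lower in female than in male livers, Ppara, Nr1i3 and Rxra among the higher, beside 20.0% of all genes called. The interaction passed for 5, of which 4 were negative, beside 23.7% of all genes.

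Members were then compared mouse by mouse, as deviations of log2 CPM from the mean of each of the 4 liver groups, over 32 livers and 45 pairs of members. Of the 45 Pearson correlations 31 were positive and 14 negative, with a median of 0.18, and 9 passed after adjustment over the 45 pairs. Among the 9, Ces1c with Ces1g, Ces1c with Ces2e and Ces1g with Ces3b did not pass by Spearman rho. Their adjusted permutation p for rho was 0.213, 0.136 and 0.0587. No count for pairs of other genes stands beside the 9, so nothing is read from it. Ces1g and Ces2e, which lie in different gene clusters, had the smallest p. Their r was 0.71 (permutation p = 3e-05, adjusted p = 0.00135) and their Spearman rho 0.69 (permutation p = 0.00021, adjusted p = 0.00945). Without the 2 livers farthest from the median of Ces1g, r was 0.66; it was 0.35 in males and 0.84 in females.

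Ces1d varied most closely with Ces1f, the member whose level hardly differed between diets. Their r was 0.67 (permutation p = 0.00028, adjusted p = 0.00465) and rho 0.64 (permutation p = 0.00049, adjusted p = 0.011). It was 0.56 without the 2 farthest livers, 0.79 in males and 0.55 in females. Ces2e and Ces3b varied in opposite directions, with r of -0.50 (permutation p = 0.00031, adjusted p = 0.00465) and rho of -0.53 (permutation p = 0.00226, adjusted p = 0.0169). That relation was -0.49 without the 2 farthest livers, but -0.14 in males and -0.71 in females, a difference that was not tested.

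The mitochondrial share was then regressed out of both genes of each pair, an alternative chosen after seeing the data. The r of Ces1g and Ces2e went from 0.71 to 0.44 and that of Ces2e and Ces3b from -0.50 to -0.14, while that of Ces1d and Ces1f was 0.67 both before and after. Permutations were made within the 4 groups, and the part of depth in these relations was not tested.

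The genes outside the family whose liver levels were most like a member's were taken from 17641 genes by the same deviations over 32 livers, as a description. For Ces1d they were Fgf1 (r 0.65), Usp2 (0.65) and Cry1 (0.64). For Ces2e they were Chchd2 (0.94), Dbi (0.93) and Timm8b (0.93), and for Ces1c Psmb5 (0.86), F2 (0.86) and Ndufc2 (0.83). For Ces1g they were Adh1 (0.79), Sod2 (0.79) and Gm10221 (0.78), and for Ces1f Akr1c14 (0.77), Rgn (0.76) and Acad11 (0.74). The highest values of the members were thus unequal: Ces2e had neighbours above 0.9, whereas Ces1d, Ces1e and Ces2a had none above 0.7. Unlike for the pairs of members, the mitochondrial share was not regressed out here, and its part in these values was not tested. Ces3a was nearest to Gpaa1 (0.78), Ces3b to Gm30262 (0.86), Ces2a to 9030616G12Rik (0.70), Ces2c to Abcg2 (0.71) and Ces1e to Gm32624 (0.68).

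All 20 Ces genes lie on chromosome 8 in 2 clusters (GRCm39). The Ces1 and Ces5 cluster, chr8:93746842-94262458, holds 9 Ces genes on the minus strand, 5 of them members. The Ces2, Ces3 and Ces4 cluster, chr8:105460635-105876741, holds 11 on the plus strand, 5 of them members. They span 515.6 and 416.1 kb and lie 11198.2 kb apart. Ces1d (chr8:93892696-93924466) sits beside Ces1e (chr8:93927846-93956247), whose diets overlapped in male livers, and Ces2e (chr8:105652892-105661304) is separated by 3 Ces genes from Ces3a, which differed in the other direction.

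**Figure D3:**
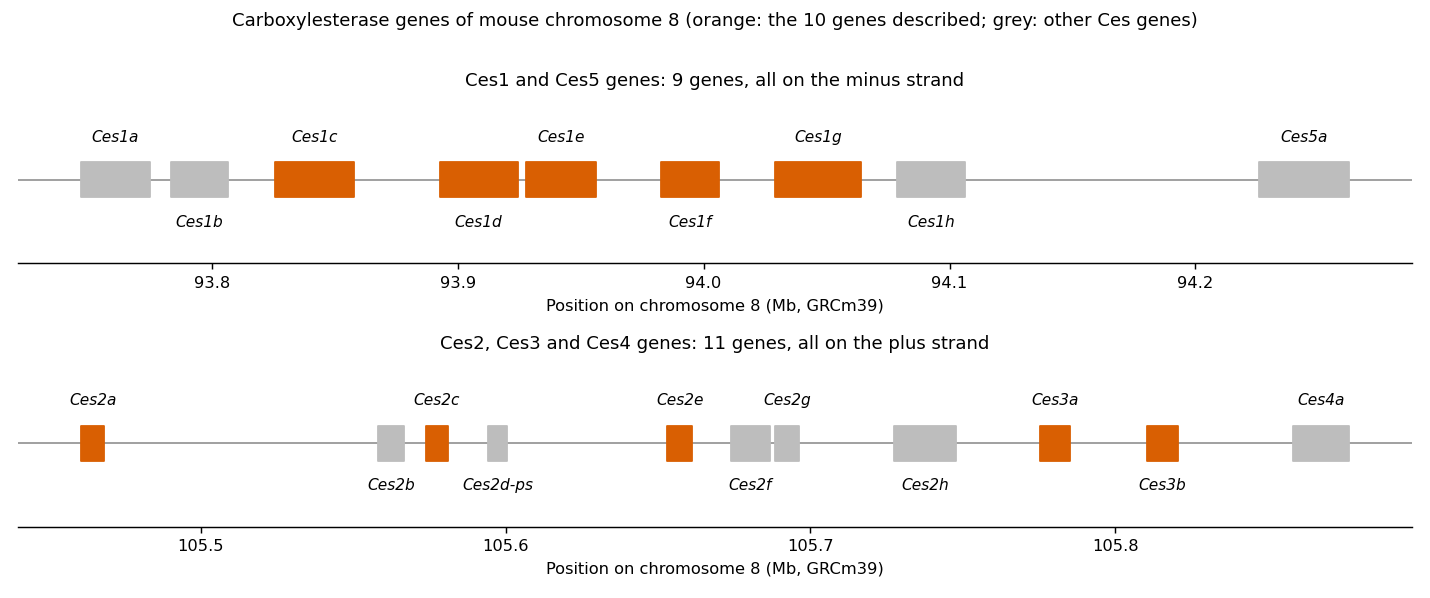
Map of both Ces clusters of mouse chromosome 8, with position in the GRCm39 build on the axis; each box is 1 gene from start to end, the 10 genes described are orange and the other Ces genes grey. The clusters hold 9 and 11 Ces genes, on the minus and the plus strand.

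Because the genes arose by duplication, reads can match more than 1 of them, and how reads with several matches were counted is not stated. Coding sequences of Ces3a and Ces3b (chr8:105810385-105820561) were 95.3% identical, those of Ces2c and Ces2b 91.9% and those of Ces1c and Ces1b 90.9%. The lowest identity of any member with a Ces gene was 52.5%. Stretches of 100 bases with an exact copy in another gene made up 58.2% of the Ces2c transcript, mostly in the noncoding gene Gm64957, which overlaps the pseudogene Ces2d-ps (GENCODE vM39), 10.7% of Ces2a, 9.04% of Ces3a, 7.26% of Ces3b and 1.35% of Ces1c. They made up 0% of Ces1d, Ces1e, Ces1f, Ces1g and Ces2e. The levels of Ces2c are therefore the least certain of the 10, while Ces1d and Ces2e, which had the 2 largest diet differences in male livers, share no such stretch. Ces1d overlaps the gene model Gm45909 on the same strand and Ces3a overlaps Gm45724 on the opposite strand.

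Promoters are shown for Ces1d, Ces2a and Ces2e, 3 of the 4 members that were higher under IF in male livers with no overlap between the diets. Each runs from 250 bases before to 50 bases after the gene start of RefSeq in GRCm39, and all 10 members were matched by symbol. Both strands were searched for the letters AGGTCA (nuclear receptors), CCAAT (the CCAAT box), TATAAA (the TATA box), GTTAAT (HNF1), CAAAGTC (HNF4) and CACGTG (the E-box). The windows are chr8:93924417-93924716 on the minus strand for Ces1d, and on the plus strand chr8:105460381-105460680 for Ces2a and chr8:105652598-105652897 for Ces2e. Capitals mark the letters found, in either orientation.
Ces1d: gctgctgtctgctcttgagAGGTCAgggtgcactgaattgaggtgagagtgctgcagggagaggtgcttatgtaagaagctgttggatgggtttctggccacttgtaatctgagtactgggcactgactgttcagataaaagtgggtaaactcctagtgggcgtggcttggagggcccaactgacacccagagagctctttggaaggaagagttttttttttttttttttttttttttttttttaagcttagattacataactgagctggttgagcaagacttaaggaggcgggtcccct
Ces2a: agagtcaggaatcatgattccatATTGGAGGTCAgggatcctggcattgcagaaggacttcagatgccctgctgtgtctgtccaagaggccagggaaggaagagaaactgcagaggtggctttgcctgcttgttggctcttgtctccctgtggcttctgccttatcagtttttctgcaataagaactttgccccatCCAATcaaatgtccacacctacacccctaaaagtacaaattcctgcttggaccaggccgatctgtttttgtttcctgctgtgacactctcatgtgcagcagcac
Ces2e: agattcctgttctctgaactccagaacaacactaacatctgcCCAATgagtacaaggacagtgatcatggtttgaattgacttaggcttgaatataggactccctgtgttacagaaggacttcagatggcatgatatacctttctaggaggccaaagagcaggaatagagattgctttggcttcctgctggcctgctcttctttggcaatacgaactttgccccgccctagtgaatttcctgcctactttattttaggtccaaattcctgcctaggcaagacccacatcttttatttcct

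AGGTCA was found at position -231 from the gene start of Ces1d and at -222 of Ces2a, where it directly follows an inverted CCAAT at -227. Ces2e and Ces1g, the other 2 of these 4 members, lack these letters in their windows, and 15.1% of 21770 promoters hold them. CCAAT was found in Ces1g, Ces2a and Ces2e and not in Ces1d, beside 39.9% of promoters. TATAAA (13.2% of promoters), GTTAAT (6.89%), CAAAGTC (4.18%) and CACGTG (7.81%) were found in 0 of these 4. Nothing is read from these counts. The matches describe letters and not bound sites.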

How the data were processed

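Polyadenylated RNA of liver, muscle and cortex was sequenced in directional libraries. Reads were aligned by the authors with Hisat2 (GRCm39), and the values used here are their featureCounts output, raw counts for each gene; the strand setting and the treatment of reads with several matches are not given in the sources used here. Of 96 libraries, 95 were used; the cortex library of AL mouse 1 was omitted for its sex-linked genes. The number of columns of sample values not used was 0. Depth was 26097314 to 49838004 counts, so a gene at 0 counts may lie below detection. CPM used library totals and TPM the deposited gene lengths.

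Each comparison was fitted across all genes with edgeR 4.0.16 (R 4.3.3), quasi-likelihood with robust dispersion, TMM factors, filterByExpr (minimum count 10, minimum total count 15) and Benjamini-Hochberg adjustment at 0.05. Diet was tested within sex and tissue, and sex under AL and the interaction over 32 liver libraries. A standard error is the log2 difference divided by the root of the F statistic. DESeq2 1.42.0, RLE size factors, total counts, other filters, a replicate block, omission of mice 2 and 10 and of each liver library in turn were the alternatives, and the fits were tested on simulated data. Correlations used 100000 permutations. Coding sequences were aligned with mafft 7.526; promoters are those of RefSeq, and 1 is not reported here. Python 3.11.15, numpy 2.4.6, pandas 2.3.3 and matplotlib 3.10.9 were used.

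The members and gene lists were chosen with earlier results of these data known. Named genes are the 10 members, listed genes called in the same direction in both sexes (at most 4 a list, and there were 0) and listed genes a sentence needs. For each member up to 3 of the most similar genes by Pearson r of log2 CPM (prior count 2) are also named.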

Additional observations from a re-analysis of the deposited data

Results flagged for a closer look

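In 4 groups a single library lay far from the other 7: its gap to the nearest one, as a share of the group's range, exceeded Dixon's 95% value. They were Ces1d in liver of AL mouse 1 (309 CPM), Ces3b in liver of AL mouse 8 (1896 CPM), Ces1d in muscle of IF mouse 12 (206 CPM) and Ces1f in muscle of IF mouse 34 (4.08 CPM). Chance alone gives about 1 in 20 groups such a library, and 47 groups were examined.

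The interaction fit of edgeR set the female diet difference in liver apart from the male one for Ces1d (log2 -2.47), Ces2e (-1.63), Ces3a (0.89) and Ces3b (1.60). The genes were listed with these diet levels known, so the values are a description and no conclusion rests on them. Ces3b was no longer set apart in 15 of 32 fits that each left out 1 library, nor with the replicate block, total counts or no filter on low counts. Sex and set of mice cannot be told apart in these values.

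In the cortex library of AL mouse 1, which no main comparison uses, Xist stood at 213 CPM. It was at most 0.229 CPM in the other cortex libraries labelled male and 185 to 337 CPM in those labelled female. The library of AL mouse 1 was the only 1 of 96 libraries whose sex-linked genes went against its label. The members summed to 0.0835 CPM in it.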

How the results depend on the processing

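Counts of genes and members called in liver stayed within 1.5 times the reported counts under each alternative tried, except that DESeq2 called 6 genes in female livers where edgeR called 0. Outside liver, where few or no members were tested, DESeq2 called 91 genes in female muscle, 2259 in male cortex and 73 in female cortex. With no filter on low counts 5 genes were called in female muscle. In male cortex 499 were called without mice 2 and 10, and 295 with the omitted library of AL mouse 1 included. In female cortex 0 were called with total counts. Of the members, none called in a comparison changed direction under any alternative run. Values that changed sign were all of members not called: in the comparison of female with male AL livers, Ces1e was -0.00938 with DESeq2, -0.000318 with no filter, -0.00943 with RLE size factors, -0.00846 with at least 10 counts in every library and -0.0135 without mice 2 and 10, and Ces1f was 0.0271 with total counts. In the interaction, Ces1c was -0.0761 and Ces1f -0.134 with total counts, and Ces1e was 0.0104 without mice 2 and 10. Leaving out each liver library in turn gave 6842 to 7218 genes called in males, 0 in females, 3056 to 3652 between the sexes under AL and 3836 to 4315 for the interaction, with 5 to 6, 0, 4 to 5 and 3 to 4 members. It moved Ces1e between the sexes from -0.0352 to 0.0705, and in the interaction Ces1f from -0.0251 to 0.0803 and Ces2c from -0.58 to 0.0596. Between diets it moved Ces1f from -0.0173 to 0.101 in males and from -0.000206 to 0.0914 in females, Ces2c from -0.355 to 0.00824 in males, and in females Ces2e from -0.193 to 0.0719 and Ces3a from -0.129 to 0.0405. Without mice 2 and 10, Ces1c was -0.0173 and Ces1f -0.0452 in males, and with the replicate block Ces2e was 0.0412 in females. The call of Ces3b between diets in males was lost in 7 of 16 of these fits and with the replicate block. The cause was not tested. Depth limits what can be said of the 7 members with almost no counts in muscle and of all 10 in cortex.

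The replicate number of the labels (1 to 8 in each group) was also entered as a replicate block, although AL and IF mice are different animals. AL and IF livers of the same replicate number deviated together with r of -0.04 to 0.10 in males and -0.18 to 0.11 in females. The r was -0.14 to 0.11 and -0.26 to 0.45 in muscle and -0.26 to 0.21 and -0.22 to 0.17 in cortex, in the same order. Libraries matched best with their own number in at most 2 of the pairs in a group. With the replicate block 7090 genes were called in male livers, 0 in female livers, 3304 between the sexes and 3933 for the interaction, with 5, 0, 5 and 3 members; 382 were called in male cortex and 0 in female cortex.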
